A study of Homo sapiens with 6 samples.

Results

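The genes described here form the core of the NRF2 antioxidant response in THP1 cells, a human line of monocytic acute myeloid leukaemia. They were chosen by name: NFE2L2, which encodes NRF2, its inhibitor KEAP1, and the enzyme genes GCLC, GCLM, NQO1, SRXN1, TXNRD1, TXN and PRDX1. Every probe set that the array annotation assigned to exactly 1 of these symbols was kept. This gave 19 probe sets for 9 genes, out of 54613 probe sets and 19775 genes tested, and 1 further probe set that lists NFE2L2 beside another gene was left out. The study compared 3 arrays of untreated THP1 cells with 3 arrays of THP1 cells grown for 48 hours on immobilized Dll4-Fc, a fusion of the Notch ligand Delta-like 4 to the Fc region of an antibody. Both groups were the same unmodified cell line in the same serum-containing medium. The Dll4-Fc concentration is 30 nM in the treatment protocol but 60 nM in the sample labels, so the dose is uncertain; the control is vehicle in the protocol and untreated in the labels. The labels name no control coated with Fc alone and do not say whether replicates were separate cultures, so the p-values reflect the spread among these arrays, which may be technical.

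NRF2 is a transcription factor that KEAP1 normally binds and hands to a ubiquitin ligase for destruction. Oxidants and electrophiles modify cysteines of KEAP1, NRF2 then escapes, pairs with a small MAF protein and binds antioxidant response elements in front of genes for glutathione synthesis, thioredoxin recycling and quinone detoxification. Because most of this control acts on the NRF2 protein, an expression array sees the pathway mainly through its target genes. Monocytes and macrophages, which make oxidants to kill microbes, are known to use these enzymes for their own protection.

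The antioxidant response element has a core of TGACNNNGC, where N is any base. It was searched on both strands of RefSeq promoter windows (GRCh38.p14) that run from 250 bases before to 50 bases after a gene start. Windows were found for 8 of the 9 genes, 11 windows in all, and not for PRDX1. The core was present in 4 of the 11 windows (36.4%), against 13.3% of all 35116 windows of that length. The 4 belonged to GCLM, KEAP1 and TXNRD1, and 0 of these matches overlapped TGACTCA or TGAGTCA, the similar letters bound by AP-1. A match is a description of the letters and not a shown binding site. The following stretches show the 120 bases before the gene start and the first base of the gene for the 2 subunits of 1 enzyme, GCLC, which rose, and GCLM, which had no higher probe set, and for NQO1 and TXNRD1, a target that rose and one that did not pass the test. Matches to the core are in capitals, and each stretch reads 5′ to 3′ on the gene's strand.
GCLC (chr6:53545101-53545221, minus strand): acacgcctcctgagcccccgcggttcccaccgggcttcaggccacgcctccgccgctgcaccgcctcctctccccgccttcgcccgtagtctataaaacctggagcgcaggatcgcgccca
GCLM (chr1:93909430-93909550, minus strand): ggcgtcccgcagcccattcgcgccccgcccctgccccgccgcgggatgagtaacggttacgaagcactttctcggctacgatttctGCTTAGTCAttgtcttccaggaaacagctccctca
NQO1 (chr16:69726560-69726680, minus strand): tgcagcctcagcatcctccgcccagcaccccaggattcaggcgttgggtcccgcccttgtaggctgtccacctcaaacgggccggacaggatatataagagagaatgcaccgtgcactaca
TXNRD1 (chr12:104215659-104215779, plus strand): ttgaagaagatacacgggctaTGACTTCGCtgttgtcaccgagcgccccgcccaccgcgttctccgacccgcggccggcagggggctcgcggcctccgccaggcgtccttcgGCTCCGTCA
The GCLM match, GCTTAGTCA, is TGACTAAGC on the opposite strand, and the same 9 letters occur before an inner start of KEAP1 on chromosome 19. TXNRD1 holds a match on each strand of the stretch shown and another before a start farther inside the gene. GCLC and NQO1, the members with the largest rises, hold no match in these windows, which says only that these letters are not in this part of their promoters.

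The arrays were alike within groups (r = 0.997 to 0.999 across genes) and less so between groups (r = 0.981 to 0.985). Their median intensities lay between 50.6 and 52.7. The values were quantile normalized, which makes medians nearly equal in advance, so these medians say nothing of array quality. For ACTB, the excess of 3' over 5' log2 signal averaged 0.72 ± 0.05 (SD, n = 3) without and 0.67 ± 0.03 with Dll4-Fc (exact permutation p = 0.2, 2-sided, where 3 against 3 cannot go below 0.1). Of 10 measured monocytic and myeloid markers 9 lay above the median probe set signal of 5.70 (log2), and 6 rose and 2 fell with Dll4-Fc. Of all 19775 genes, 12748 lay at or above that median, 11.6% rose and 15% fell. The summed linear signal of the 10 markers was 12902 to 13501 in untreated and 27037 to 29020 in Dll4-Fc arrays. Such a sum rests mostly on the brightest genes. LYZ, the brightest of the 10 on Dll4-Fc arrays, went from 11.87 to 13.87 (log2), while CD4 and FCGR1A did not pass. Among the 10, CD14, a monocyte receptor, went from 4.98 to 10.6 (log2) and MPO, an early granulocyte enzyme, from 6.65 to 5.86. Among markers of other cells, the number above that median was 0 of 4 for T cells, 2 of 3 for B cells, 1 of 5 for epithelial cells, 1 of 5 for fibroblasts, 1 of 4 for endothelial cells, 1 of 2 for erythroid cells and 1 of 2 for adipose cells. Of these 25 markers 3 rose, where 11.6% of all genes did: PAX5, ADIPOQ and PECAM1, a molecule that monocytes also carry. The part of these shifts in the differences below was not tested.

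In THP1 cells on Dll4-Fc, GCLC rose 3.08-fold, NQO1 rose 1.67-fold, and NFE2L2 and PRDX1 rose by small amounts, while KEAP1 fell. GCLM, SRXN1, TXNRD1 and TXN did not pass the test. Each gene was represented by its brightest probe set, and the groups were compared with limma on log2 signal, with Benjamini-Hochberg adjustment over all genes and a threshold of 0.05. By this fit 4 of the 9 genes were higher, where 11.6% of all genes were, and 1 was lower, where 15% of all genes were. In either direction 5 of 9 passed (55.6%), against 26.6% of all genes and 37.3% of the genes at or above the median probe set signal, where all 9 lay. The groups did not overlap for 7 of the 9, against 41.6% of all genes, a share not taken for the brighter ones alone. The median difference of the 9 was 0.13, against -0.01 over all genes. The count of higher genes fell from 4 to 2 without untreated replicate 2 or without replicate 1 or 2 of Dll4-Fc, since NFE2L2 and PRDX1 then did not pass. Over all genes the number higher also fell in these 3 fits, from 2298 to between 1787 and 1890. Whether a signal comes from fewer cells or from less RNA per cell cannot be told apart in these bulk samples.

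**Figure D1:**
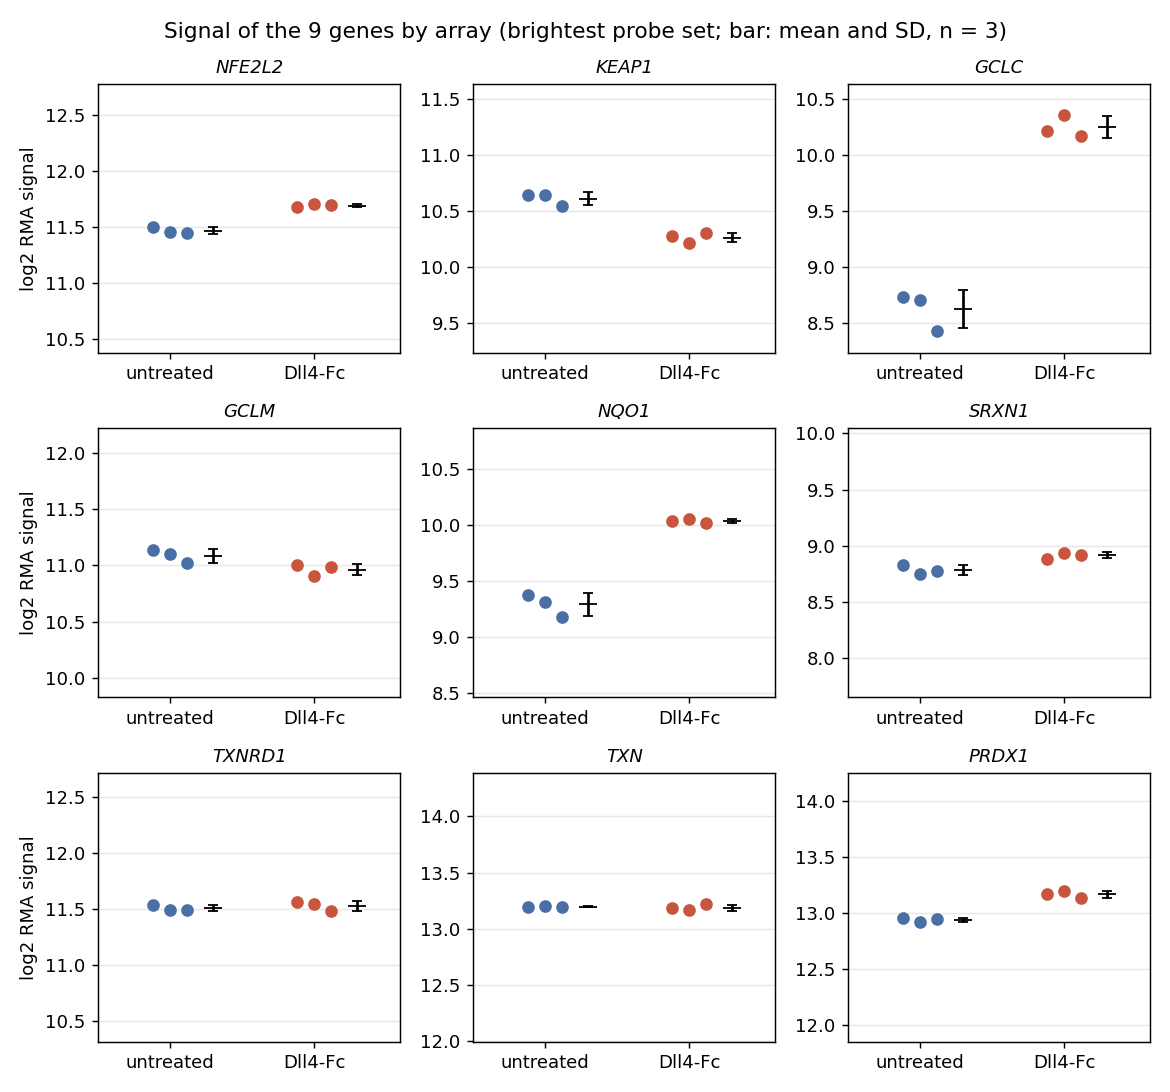
Log2 RMA signal of the brightest probe set of each gene on the 6 arrays (points), by group, with the mean and SD of 3 arrays beside them; all panels span the same number of log2 units. GCLC and NQO1 show the widest gaps between untreated and Dll4-Fc arrays, and TXN and TXNRD1 overlap between the groups.

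The regulator NFE2L2 had log2 signals of 11.50, 11.46 and 11.45 on the untreated arrays and 11.68, 11.70 and 11.70 on the Dll4-Fc arrays. All Dll4-Fc arrays were above all untreated arrays, with a gap larger than the spread within either group. The rise was 0.23 ± 0.05 (SE of the difference, n = 3 per group; 1.17-fold), with an adjusted p of 0.0139 by limma. It did not pass without untreated replicate 2 (adjusted p = 0.0569), or replicate 1 (0.0507) or 2 (0.0547) of Dll4-Fc. Of the other NFE2L2 probe sets, one at a mean of 6.83 also rose, by 0.28 ± 0.06 (adjusted p = 0.0180 by limma over all probe sets). The other, at 5.12 and so below the median probe set signal, differed by -0.02 ± 0.06 (adjusted p = 0.906).

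KEAP1, the adaptor that targets NRF2 for destruction, moved in the opposite direction. Its only probe set gave 10.64, 10.64 and 10.54 on the untreated arrays and 10.27, 10.22 and 10.30 on the Dll4-Fc arrays. The groups were clearly separate, with every Dll4-Fc array lower. The fall was -0.35 ± 0.06 (1.27-fold, adjusted p = 0.00370 by limma), and it passed under all 15 alternative settings, where it ranged from -0.38 to -0.29. Within an array, the NFE2L2 probe set exceeded that of KEAP1 by 0.86 ± 0.04 (SD, n = 3) in untreated and by 1.43 ± 0.05 in Dll4-Fc cells. That difference of 0.57 shows that the 2 signals changed unequally; the 2 probe sets have different brightness per molecule, so the levels themselves cannot be set against each other.

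GCLC encodes the catalytic subunit of glutamate-cysteine ligase, which carries out the first and rate-limiting step of glutathione synthesis. Its brightest probe set read 8.74, 8.71 and 8.43 (log2) on the untreated arrays and 10.22, 10.36 and 10.17 on the Dll4-Fc arrays. In linear intensity this was 345.2 to 426.7 against 1154.2 to 1312.1, with no overlap. The rise of 1.62 ± 0.10 on the log2 scale (3.08-fold, 95% interval 1.40 to 1.85) had an adjusted p of 2.53e-05 by limma. GCLC was the only one of the 9 that changed at least 2-fold, as 2.6% of all genes did upward, and it stood at rank 257 of 19775 genes from the largest rise. The mean of its 3 probe sets gave 1.03 (adjusted p = 1.2e-05). A second probe set, which is not shared between transcripts, gave 1.31 ± 0.07 (adjusted p = 1.09e-05 by limma over all probe sets). The third, at a mean of 4.63 and below the median probe set signal, gave 0.15 ± 0.08 (adjusted p = 0.257).

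GCLM encodes the modifier subunit of the same ligase, which makes the catalytic subunit more efficient. Its brightest probe set gave 11.14, 11.11 and 11.02 on the untreated arrays and 11.00, 10.91 and 10.99 on the Dll4-Fc arrays. The groups touch without overlapping, and the difference of -0.12 ± 0.06 (95% interval -0.26 to 0.01) did not pass (adjusted p = 0.182 by limma). The other probe sets were lower by more. The one at a mean of 10.3 fell by 0.34 ± 0.09 (adjusted p = 0.0309 over all probe sets). The one at 9.54 fell by 0.51 ± 0.07 (adjusted p = 0.00246), from 9.79 ± 0.04 (SD, n = 3) to 9.28 ± 0.10. The fall of the former did not pass without untreated replicate 2 (adjusted p = 0.108), untreated replicate 3 (0.0532), or replicate 1 (0.0977) or 2 (0.110) of Dll4-Fc. As the mean of its 3 probe sets GCLM differed by -0.32 and passed (adjusted p = 0.00567), so the call rests on the choice of probe set, while none of the 3 was higher.

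The change of the 2 ligase subunits within each array was unequal. The GCLC signal minus the GCLM signal within an array was -2.40, -2.40 and -2.59 on the untreated arrays and -0.78, -0.55 and -0.81 on the Dll4-Fc arrays. The change of 1.75 carries no test, and the levels of the 2 probe sets cannot be set against each other here either.

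NQO1, a quinone reductase and a widely used readout of NRF2 activity, had 3 probe sets that all rose by similar amounts. The brightest gave 9.38, 9.31 and 9.18 on the untreated arrays and 10.03, 10.06 and 10.01 on the Dll4-Fc arrays. The Dll4-Fc arrays lay close together and all above the untreated ones. The rise was 0.74 ± 0.06 (1.67-fold, adjusted p = 0.000176 by limma). The others gave 0.73 ± 0.07 and 0.66 ± 0.09 (adjusted p = 0.000433 and 0.00164 over all probe sets). All 3 are of the type shared between transcripts, so NQO1 is not measured without such probe sets; under the other 14 alternatives the rise stayed between 0.69 and 0.81 and passed.

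**Figure D2:**
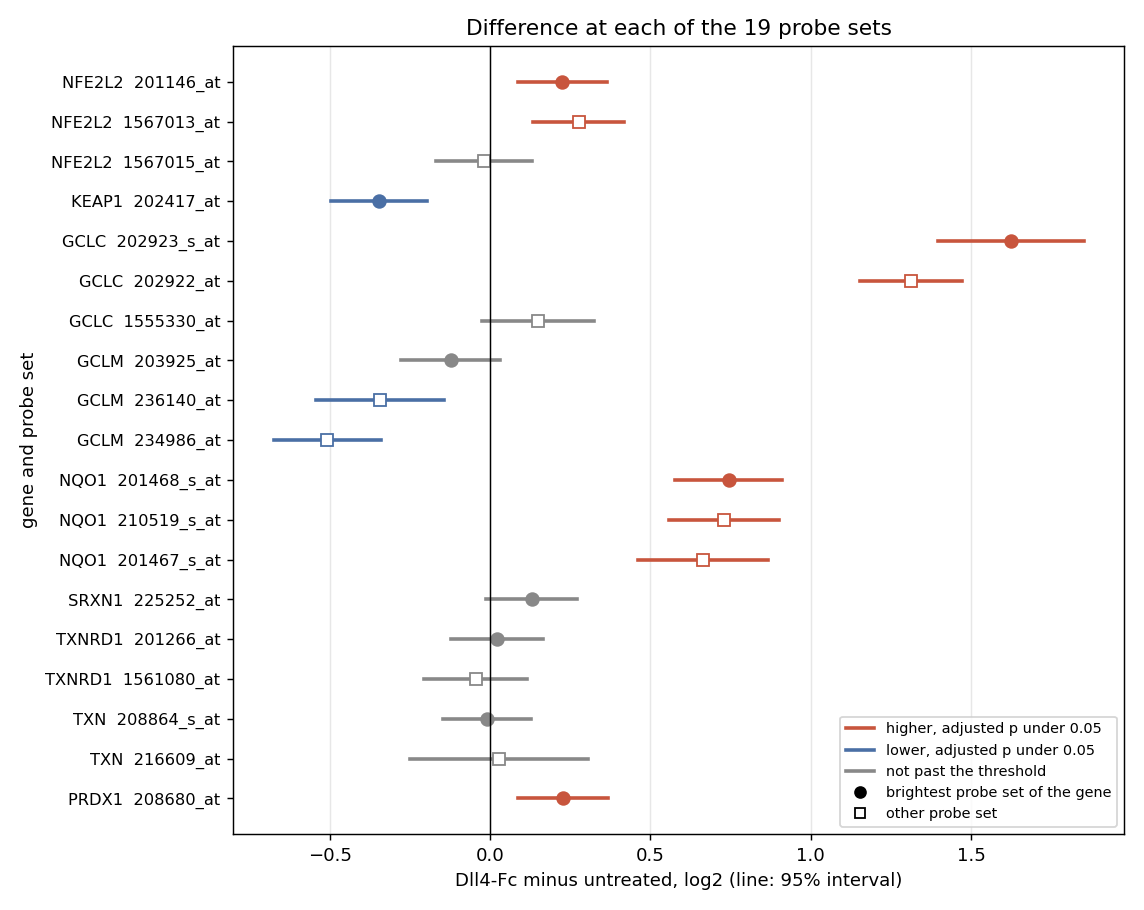
Difference of each of the 19 probe sets (Dll4-Fc minus untreated, log2 units) with its 95% interval from limma over all probe sets, coloured by call; filled circles are the brightest probe set of a gene and open squares the others. The 3 NQO1 probe sets agree within their intervals, the 2 brighter GCLC probe sets lie far to the right, and the 3 GCLM probe sets lie left of 0.

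Counted by probe set, 8 of the 19 were higher and 3 lower, where 7.21% of all probe sets were higher and 9.26% lower. In either direction 16.5% of all probe sets passed. When only probe sets at or above the median probe set signal were fitted, 9870 of 27307 passed. The groups did not overlap for 14 of the 19, against 33.2% of all probe sets, a share not taken for the brighter ones alone. Probe sets of 1 gene read the same RNA and are not replicates. Of the 19, 16 lay above the median probe set signal; the 3 below it, of NFE2L2, GCLC and TXNRD1, did not pass. Leaving out 1 array at a time, the number higher was 5 to 6. It was 5 without untreated replicate 2, or replicate 1 or 2 of Dll4-Fc. Over all probe sets 5711 to 9419 passed in either direction with 1 array left out, where 8996 did with all arrays. The brightest NFE2L2 probe set (adjusted p = 0.0648 to 0.123 by limma) and that of PRDX1 (0.0544 to 0.131) did not pass whichever array was left out.

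The peroxiredoxin and thioredoxin arm showed small differences or none past the threshold. PRDX1 encodes an abundant peroxidase that reduces hydrogen peroxide. It gave 12.95, 12.91 and 12.94 on the untreated arrays and 13.16, 13.19 and 13.13 on the Dll4-Fc arrays. The Dll4-Fc arrays were all higher, with a gap larger than the spread within either group. The rise of 0.23 ± 0.05 (1.17-fold) had an adjusted p of 0.0140 by limma. It did not pass without untreated replicate 2 (adjusted p = 0.0597), or replicate 1 (0.0569) or 2 (0.0604) of Dll4-Fc.

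SRXN1, sulfiredoxin, repairs over-oxidized peroxiredoxins. Its probe set gave 8.83, 8.75 and 8.77 on the untreated arrays and 8.88, 8.94 and 8.91 on the Dll4-Fc arrays. The groups did not overlap, and the difference of 0.13 ± 0.05 (95% interval 0.01 to 0.25) did not pass after adjustment (adjusted p = 0.119 by limma). With cyclic loess between arrays it was 0.20 and passed (adjusted p = 0.0268).

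TXN, thioredoxin, passes electrons to peroxiredoxins and other targets. Its brightest probe set gave 13.19, 13.21 and 13.19 on the untreated arrays and 13.18, 13.16 and 13.22 on the Dll4-Fc arrays. The groups overlapped, with a difference of -0.01 ± 0.05 (95% interval -0.13 to 0.11, adjusted p = 0.912 by limma). The other TXN probe set, at a mean of 7.30, gave 0.03 ± 0.12.

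TXNRD1, the cytosolic thioredoxin reductase that recharges TXN with NADPH, also overlapped between the groups. It gave 11.54, 11.49 and 11.50 on the untreated arrays and 11.56, 11.54 and 11.48 on the Dll4-Fc arrays. The difference was 0.02 ± 0.05 (95% interval -0.10 to 0.15, adjusted p = 0.827 by limma). These intervals hold no change of the size seen for NQO1 or GCLC. The second TXNRD1 probe set lay at a mean of 3.17, far below the median probe set signal, and cannot decide the matter.

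Other genes of the pathway were grouped in 6 lists with 121 entries, of which 113 were measured. Of these 26 rose and 25 fell, with a median of 0.05, where 11.6% of all genes rose and 15% fell. In either direction 45.1% passed, against 26.6% of all genes and 37.3% of the genes at or above the median probe set signal. Of the 113 genes, 101 had a probe set at or above that median. The split between rises and falls differed from list to list, as described next. All tests are those of limma over all genes. In the detoxification and haem list 8 of 20 rose and 4 fell (60% in either direction), and in the NADPH list 4 of 9 rose and 2 fell (66.7%). In the thioredoxin and peroxiredoxin list 1 of 16 rose and 7 fell (50%).

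Among the regulators around NRF2, the brightest probe sets of 5 of 22 genes rose and those of 3 fell, with a median of 0.03. In either direction 36.4% passed, where 37.3% of genes at or above the median probe set signal did. Only 19 of the 22 had a probe set at or above that median, so the shares are of unlike sets. When only such probe sets were fitted, 5 of the 19 rose and 3 fell, where 5589 of all 12748 genes passed. The 5 that rose include SQSTM1, whose probe sets disagree and which is described below. The widest rise was that of MAFF, a small MAF protein that can partner NRF2, from 5.46 ± 0.15 (SD, n = 3) to 8.50 ± 0.07 on the log2 scale. This was 3.04 ± 0.08 or 8.22-fold (adjusted p = 5.47e-07), from an untreated level below the median probe set signal. Its second probe set, brighter in untreated cells, rose from 6.51 to 7.22, a difference of 0.71. That probe set becomes the brightest when any of the 3 Dll4-Fc arrays is left out, and MAFF then rose by 0.69 to 0.72 (adjusted p = 0.0219 to 0.0262). The mean of both probe sets gave 1.87, so the direction holds and the size does not. TRIM21, a ubiquitin ligase, rose by 0.46 ± 0.07, and the NRF2 relatives NFE2L3 and NFE2L1 by 0.40 ± 0.09 and 0.25 ± 0.06. NFE2L3 rested on a dim, shared probe set and differed by 0.09 without shared ones (adjusted p = 0.696). NFE2, the blood-cell relative of NRF2, fell by 0.96 ± 0.09 (1.94-fold), the chromatin remodeller CHD6 by 0.60 ± 0.09 (0.30 where its 4 probe sets, of which 2 fell, were averaged) and GSK3B, a kinase that marks NRF2 for degradation, by 0.25 ± 0.06. GSK3B lost its call without untreated replicate 1 or 2 or replicate 1 or 2 of Dll4-Fc, NFE2L1 without replicate 2 of either group, and NFE2L3 without replicate 1 of Dll4-Fc. BACH1, a repressor that competes for the same elements, differed by 0.12 ± 0.06 (adjusted p = 0.187).

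SQSTM1, the autophagy adaptor p62, which can sequester KEAP1, was read in conflicting ways. Its brightest probe set rose by 0.27 ± 0.06 (adjusted p = 0.00953), from 9.11 to 9.23 on the untreated arrays to 9.42 to 9.45 on the Dll4-Fc arrays. Of its 5 probe sets 1 rose, 1 fell and 3 did not pass. Without shared probe sets the gene was lower, by -0.46 (adjusted p = 0.00255), so no direction is given for it.

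In the glutathione list 8 of 40 genes rose and 7 fell, with a median of 0.06. In either direction 37.5% passed, where 37.3% of genes at or above the median probe set signal did. Only 34 of the 40 had a probe set at or above that median, so the shares are of unlike sets. When only such probe sets were fitted, 9 of the 34 rose and 6 fell, where 5589 of all 12748 genes passed. Both chains of the cystine importer, which supplies the cysteine that GCLC uses, rose. SLC7A11 went from 8.61, 8.53 and 8.30 to 9.07, 9.19 and 9.18 (0.67 ± 0.09, 1.59-fold, adjusted p = 0.00139), and SLC3A2 rose by 0.63 ± 0.06 (1.55-fold). CHAC1, which degrades glutathione, rose by 0.96 ± 0.12, and GSTO1, an omega-class glutathione transferase, by 0.43 ± 0.06. GLRX2, a mitochondrial glutaredoxin, rose by 0.27 ± 0.05 and MGST1, a membrane-bound transferase, by 0.24 ± 0.05, or 0.10 without shared probe sets (adjusted p = 0.331). GSR, which regenerates reduced glutathione, overlapped between the groups and differed by 0.11 ± 0.06 (adjusted p = 0.294).

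The falls in that list were led by GSTM3, a mu-class transferase, from 12.06, 12.01 and 11.92 to 10.94, 10.94 and 11.05 (-1.02 ± 0.06, 2.03-fold, adjusted p = 3.22e-05). The glutathione peroxidase genes GPX7 and GPX4 fell by 0.58 ± 0.06 and 0.37 ± 0.05. MGST3 fell by 0.27 ± 0.05, but gave 0.14 without shared probe sets (adjusted p = 0.405). CHAC2, a relative of CHAC1, and GSTT1, a theta-class transferase, fell by 0.24 ± 0.07 and 0.22 ± 0.06, close to the threshold (adjusted p = 0.0416 and 0.0412), and did not pass under 8 of 15 and 12 of 14 alternatives. Leaving out 1 array, CHAC2 passed only without replicate 3 of Dll4-Fc and GSTT1 only without replicate 1 of Dll4-Fc.

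In the thioredoxin and peroxiredoxin list the median was -0.01. The only rise was that of SESN2, a stress-induced sestrin, by 0.80 ± 0.06 (1.74-fold, adjusted p = 8.39e-05). Its relative SESN3 fell by 0.69 ± 0.09. The methionine sulfoxide reductase MSRB3 fell furthest, from 10.93, 10.85 and 10.75 to 8.99, 9.02 and 9.21 (-1.77 ± 0.08, 3.40-fold), and MSRB2 by 0.34 ± 0.06, or 0.52 without shared probe sets. The peroxiredoxins PRDX2 and PRDX4 fell by 0.50 ± 0.06 and 0.27 ± 0.05, whereas PRDX1 rose. Averaged over its 4 probe sets, PRDX2 fell by 0.26 (adjusted p = 0.0161). TXNRD2, the mitochondrial relative of TXNRD1, fell by 0.32 ± 0.07 but gave -0.04 without shared probe sets (adjusted p = 0.903). TXNIP, which binds and inhibits thioredoxin, fell by 0.18 ± 0.06 at the edge of the threshold (adjusted p = 0.0489). TXNIP lost its call without any of the 3 untreated arrays, and without replicate 1 or 2 of Dll4-Fc.

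**Figure D3:**
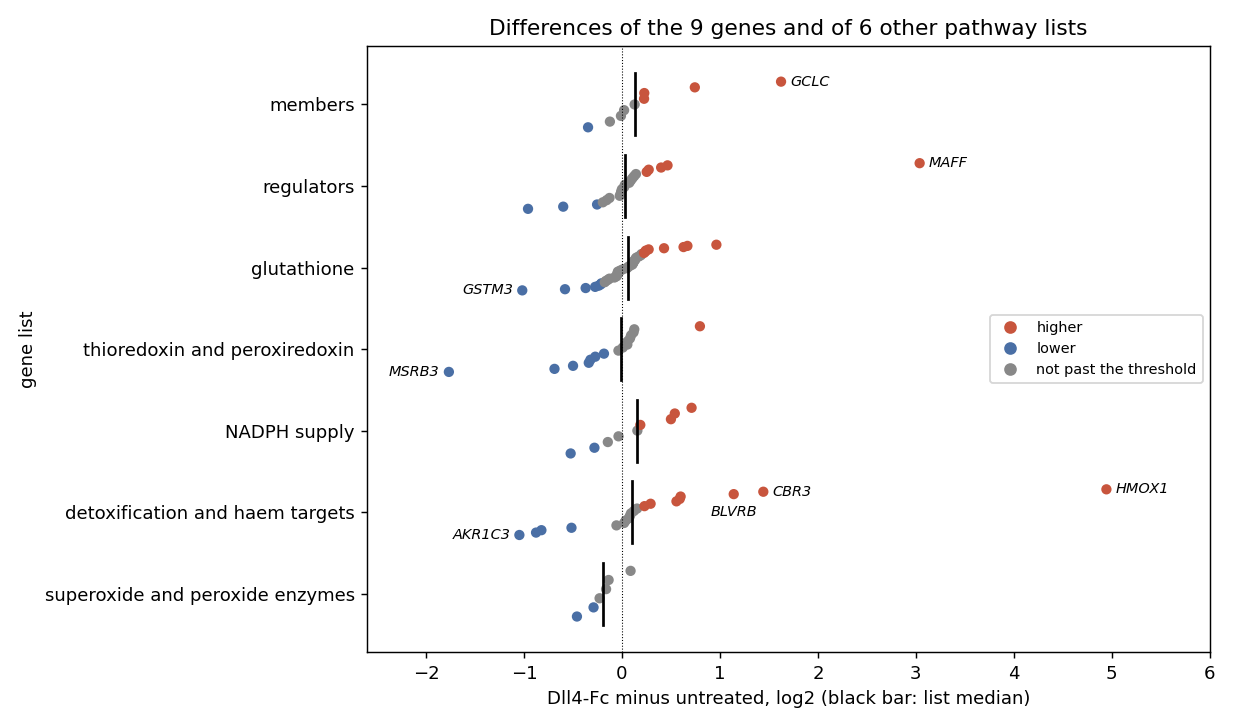
Differences (Dll4-Fc minus untreated, log2 units) of the 9 genes and of 113 other genes in 6 lists, 1 point per gene, coloured by call, with a black bar at each list's median; genes beyond 1 log2 unit are named. HMOX1 at 4.95 lies farthest right, followed by MAFF at 3.04, whose position depends on the probe set chosen (0.69 to 0.72 when a Dll4-Fc array is left out), and MSRB3 at -1.77 lies farthest left.

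NADPH powers both glutathione and thioredoxin recycling. Of 9 measured supply genes 4 rose and 2 fell, with a median of 0.16, or 0.01 where the probe sets of each gene were averaged. NADK, which makes NADP, rose by 0.71 ± 0.05 (1.64-fold, or 0.42 on the log2 scale averaged over its 6 probe sets), the malic enzyme gene ME1 by 0.54 ± 0.07, and PGD, an enzyme of the pentose phosphate pathway, by 0.50 ± 0.05. TKT, transketolase, rose by 0.19 ± 0.06 (adjusted p = 0.0433) and lost its call whichever of the 6 arrays was left out (adjusted p = 0.0786 to 0.128). PGD differed by 0.18 where its probe sets were averaged (adjusted p = 0.0580). PGLS, another enzyme of the pentose phosphate pathway, fell by 0.52 ± 0.06 and IDH2, the mitochondrial isocitrate dehydrogenase, by 0.28 ± 0.05.

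The detoxification and haem list had a median of 0.11. HMOX1, haem oxygenase 1, stood far above the others. It gave 5.76, 5.28 and 5.79 on the untreated arrays and 10.66, 10.58 and 10.42 on the Dll4-Fc arrays, a rise of 4.95 ± 0.14 (30.8-fold, adjusted p = 6.69e-07). The untreated values lay close to the median probe set signal, so the size of the fold is uncertain. The carbonyl reductases CBR3 and CBR1 rose by 1.44 ± 0.07 (2.72-fold) and 0.60 ± 0.09, and BLVRB, a biliverdin reductase, by 1.14 ± 0.08. UGDH, which makes UDP-glucuronate, and NQO2, a relative of NQO1, rose by 0.59 ± 0.07 and 0.56 ± 0.07, although NQO2 gave 0.13 without shared probe sets (adjusted p = 0.488) and 0.35 with averaged ones.

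In the opposite direction, the aldo-keto reductases AKR1C1, AKR1C2 and AKR1C3, frequently used as markers of NRF2 activity in epithelial cancers, gave -0.82 ± 0.08, -0.88 ± 0.09 and -1.05 ± 0.14, all past the threshold as lower. These genes are near-identical copies whose probe sets can read each other. AKR1C3, whose probe set is not shared, went from 5.96, 6.13 and 5.79 to 4.62, 5.04 and 5.08. That probe set is dim, with a mean over the 6 arrays below the median probe set signal of 5.70. AKR1C3 is therefore not measured without dim probe sets. Without shared probe sets AKR1C1 and AKR1C2 gave 0.04 and 0.09 (adjusted p = 0.869 and 0.577), from dimmer probe sets, and with averaged probe sets they gave -0.29 and -0.53. EPHX1, an epoxide hydrolase, fell by 0.52 ± 0.11, a call lost without replicate 1 of Dll4-Fc (adjusted p = 0.0507).

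Of 6 measured genes for superoxide and peroxide enzymes 2 fell by limma (33.3%), with a median of -0.20. Among all genes at or above the median probe set signal 37.3% passed in either direction, and 5 of the 6 lay there. The only one of the 6 with a positive difference, SOD2, gave 0.09 ± 0.06 (adjusted p = 0.324). SOD2 was read by 1 probe set, at 6.22 in untreated and 6.31 in Dll4-Fc cells, not far above the median probe set signal of 5.70. CAT, catalase, fell by 0.46 ± 0.05 (1.38-fold, adjusted p = 0.000733), from 13.76 to 13.82 on the untreated arrays to 13.27 to 13.36 on the Dll4-Fc arrays. SOD1, the cytosolic superoxide dismutase, fell by 0.29 ± 0.06.

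The core of the antioxidant response element was also counted in the windows of these other genes, by call. It was found for 7 of 22 genes that rose, 2 of 21 that fell and 13 of 48 that did not pass, against 16.1% of all genes with a window. These are counts of letters, with no test.

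The 5 genes outside the 9 whose log2 signal followed that of GCLC most closely over the 6 arrays were MICAL2, SLC31A1, ARHGEF3, NEU1 and RAPGEF2, with Pearson r of 0.9994 to 0.9997. With 2 groups of 3 arrays such values mostly reflect the gap between the groups, and 565 genes had an r above 0.99. Among the 5, SLC31A1, a copper importer, rose by 1.58 ± 0.08 and NEU1, a lysosomal sialidase, by 1.13 ± 0.07.

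**Figure D4:**
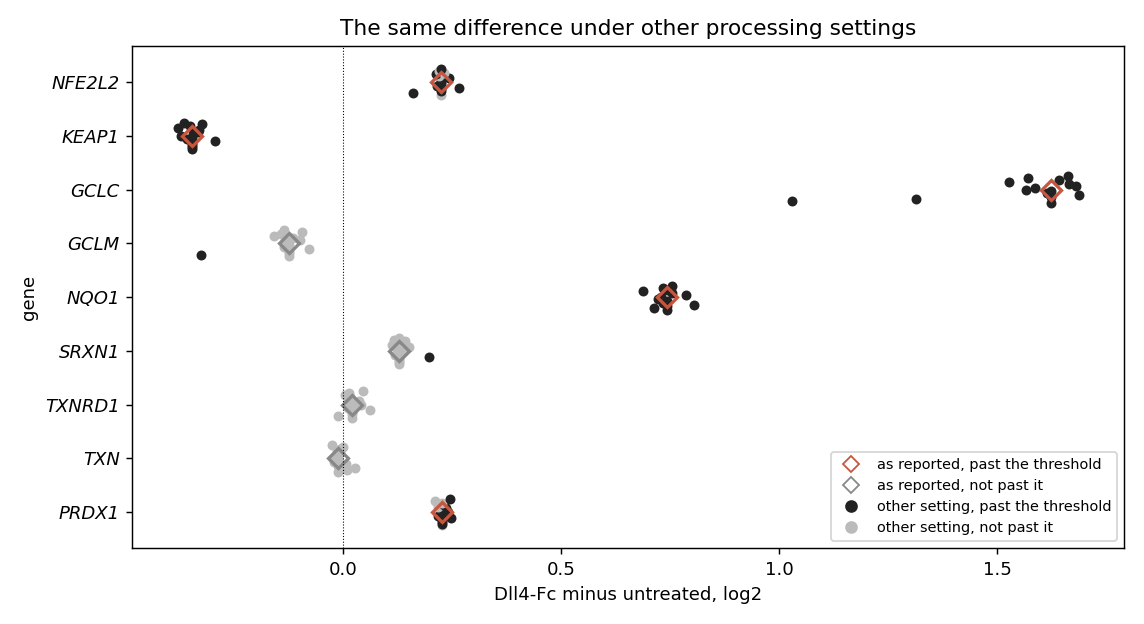
Difference of each of the 9 genes (Dll4-Fc minus untreated, log2 units) as reported (diamonds) and under 14 or 15 alternative settings (dots, dark where past the threshold). KEAP1, GCLC and NQO1 keep dark dots throughout, NFE2L2 and PRDX1 have grey and dark dots at nearly the same difference, and GCLM and SRXN1 pass under 1 setting each.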

How the data were processed

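The values are linear intensities of U133 Plus 2.0 probe sets, which the authors produced with RMA (background correction, quantile normalization, probe set summary), per the submitters' processing notes, without a stated version. RMA compresses changes of weakly lit probe sets, and its quantile step hides a change in total RNA. Intensities were log2 transformed without a filter. Array controls (62 probe sets) were left out, and genes were named from the platform annotation where a probe set had exactly 1 symbol (41097 of 54675); all 9 genes matched a current gene table (GRCh38.p14). Each gene was represented by its probe set with the highest mean; a second fit used all 54613 probe sets. The test was lmFit with eBayes from limma 3.58.1 under R 4.3.3, 2-sided with 4 residual degrees of freedom, and adjusted p-values are Benjamini-Hochberg. The median standard error was 0.08; precision is limited by having 6 arrays. Scripts were tested on simulated data. Members, lists and tests were chosen with earlier results of these data known. Named are the 9 genes, up to 6 passing genes per list and direction, HMOX1, TXNIP, GSR, SLC7A11, BACH1 and SQSTM1, the 5 genes most like GCLC, and markers that a result turns on.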

Additional observations from a re-analysis of the deposited data

How the results depend on the processing

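GCLC, NQO1 and KEAP1 kept their direction and their call under every alternative that measured them (15, 14 and 15), from 1.03 to 1.69, 0.69 to 0.81 and -0.38 to -0.29. Leaving out 1 array at a time, 2 to 4 of the 9 genes were higher and 1 lower. Of the 19 probe sets 5 to 6 were then higher and 2 to 3 lower. Of the pathway genes 21 to 25 rose and 20 to 25 fell. The count over all genes moved as well: 3641 to 5465 of 19775 passed in either direction, where 5262 did with all arrays. Without probe sets shared between transcripts, 2 probe sets in place of 8 were higher: 4 of the other 6 were not tested, and those of NFE2L2 (adjusted p = 0.0577) and PRDX1 (0.0568) were and did not pass. There were 14 pathway genes higher in place of 26, of 84 measured in place of 113. Over all genes 1572 of 16788 were then higher, in place of 2298 of 19775. Over all probe sets 5285 of 37394 passed in either direction, in place of 8996 of 54613. Averaging the probe sets of each gene, 2 of the 9 genes in place of 1 were lower. By that setting 4849 of all 19775 genes passed in either direction, in place of 5262. Some differences that were past the threshold as reported changed sign. SQSTM1 gave -0.056 with averaged probe sets. Without shared probe sets SQSTM1 gave -0.46, MGST3 0.14, AKR1C1 0.039 and AKR1C2 0.088. Of these reversed values only the -0.46 of SQSTM1 was itself past the threshold. Differences near 0 that never passed also changed sign: TXN gave 0.0080 with cyclic loess, 0.0087 with averaged probe sets, 0.028 without shared ones and -0.025 to 0.0010 leaving out 1 array, and TXNRD1 -0.011 with averaged probe sets. So did the dimmer TXN probe set (-0.078 to 0.13 leaving out 1 array) and the dimmest NFE2L2 probe set (0.0036 with array weights, -0.044 to 0.011 leaving out 1 array). Cyclic loess turned the split over all genes from 43.7% higher to 53.7%. The replicate numbers gave no sign of pairing the samples. Same-numbered arrays deviated from their group means with correlations of 0.01, -0.21 and -0.15, and 2 of 6 arrays correlated best with their own number. With 3 arrays per group this check cannot exclude pairing. With the replicate number as a block 2 of the 9 genes and 5 of the 19 probe sets were higher. NFE2L2 (adjusted p = 0.0667 by limma) and PRDX1 (0.0662) then did not pass. Over all genes 1829 were higher under the block in place of 2298. Over all probe sets 6489 of 54613 passed in either direction, in place of 8996. Of 1103 gene and probe set results under alternatives, 990 kept direction and call. Calls near 0.2 log2 units, such as those of NFE2L2, PRDX1, TKT and TXNIP, did not hold under all settings.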
